A study of Rattus norvegicus with 15 samples.

Results

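The S100 proteins and the annexins are families of calcium-binding proteins, and 10 of their genes were followed in rat spermatogonial stem cells: S100a3, S100a4, S100a6, S100a10, S100a11, Anxa1, Anxa2, Anxa3, Anxa5 and Anxa6. S100a3 and Anxa3 were chosen because their levels on these same arrays followed GDNF. Their levels across the groups are therefore a description and carry no test. The courses of the pair were not alike, as described below. The other 8 genes are their relatives, named by family, and were compared with the pair. Of 31099 probe sets on the array, 14 carried 1 of the 10 gene symbols and no other. In all, 14217 genes had such a probe set of their own.

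The study asked which transcripts depend on GDNF, short for glial cell line-derived neurotrophic factor, a growth factor that sustains self-renewal of these cells in culture. All 15 cultures were enriched spermatogonial stem cells grown for 1 month in a serum-free, defined medium with GDNF, and expanded during that time. They formed 5 groups of 3 independent cultures. The control group kept GDNF. The withdrawal group went without it for 18 h, and the remaining groups went without it for 18 h and then had it back for 2 h, 4 h or 8 h. They are called 2 h, 4 h and 8 h below. RNA from each culture was hybridised to 1 single-colour array, and the values are deposited intensities on a linear scale with no stated unit. A probe set was tested when its value was at least 16 (log2 of 4) on at least 3 of the 15 arrays. This left 15856 probe sets. Of the members, 9 genes had a tested probe set (1 each), and Anxa6 had none.

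S100 proteins are small EF-hand proteins that mostly act as dimers and expose a binding surface when they take up calcium. Annexins have a conserved core of annexin repeats that docks onto acidic membrane phospholipids in the presence of calcium. The families meet in defined complexes: S100A10 binds the amino terminus of ANXA2, and S100A11 binds that of ANXA1. GDNF itself acts on spermatogonia through the co-receptor GFRA1 and the receptor tyrosine kinase RET.

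The sequence just before an annotated start of transcription is shown for the chosen genes S100a3 and Anxa3. It is also shown for Anxa5, the relative that changed in every comparison. Each is the 250 bases upstream of the RefSeq start on build GRCr8, 5′ to 3′ on the gene's own strand. Capitals mark a motif match.
S100a3: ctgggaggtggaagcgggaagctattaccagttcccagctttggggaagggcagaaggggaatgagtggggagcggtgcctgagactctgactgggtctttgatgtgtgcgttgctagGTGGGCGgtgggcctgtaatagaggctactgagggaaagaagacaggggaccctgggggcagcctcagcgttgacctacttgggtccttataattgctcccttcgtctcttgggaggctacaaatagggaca
Anxa3: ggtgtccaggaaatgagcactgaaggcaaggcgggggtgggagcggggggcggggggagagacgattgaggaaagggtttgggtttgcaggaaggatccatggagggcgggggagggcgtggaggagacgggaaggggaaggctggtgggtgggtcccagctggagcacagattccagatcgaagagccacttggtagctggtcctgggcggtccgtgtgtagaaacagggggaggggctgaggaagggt
Anxa5: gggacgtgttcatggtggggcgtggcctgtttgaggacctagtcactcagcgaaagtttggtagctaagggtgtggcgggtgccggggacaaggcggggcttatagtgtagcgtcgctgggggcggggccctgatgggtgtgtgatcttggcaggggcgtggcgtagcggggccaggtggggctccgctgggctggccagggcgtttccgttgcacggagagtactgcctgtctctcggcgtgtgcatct
The S100a3 window is chr2:178384263-178384512 on the plus strand. It lies inside the longer RefSeq gene model of S100a3. The Anxa3 window is chr14:13085598-13085847 and the Anxa5 window chr2:121272697-121272946, both on the minus strand. The motifs, each searched separately on both strands, were TGANTCA for AP-1, CCGGAAG for ETS factors, TGTTTAC for forkhead factors and GTGGGCG for EGR factors. S100a3 held 1 EGR match, 132 to 126 bases before the start used for its window, and thus inside that longer gene model. Among 27457 RefSeq promoters of the same length, 6.79% held that motif. Of the 8 members in the RefSeq table, Anxa2 held the only other match, an AP-1 motif that 6.36% of all promoters held. The ETS motif (7.74% of all promoters) and the forkhead motif (3.25%) matched none of the 8. S100a10 and Anxa6 are missing from the table.

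On each array between 50.2% and 50.5% of all probe sets were at 16 or above. Of 12 germ cell markers, 7 were tested (Ret, Sall4, Uchl1, Etv5, Id4, Epcam and Cdh1). On withdrawal 4 of the 7 fell and 2 rose, beside 9.67% and 11.4% of all tested probe sets. Ret, Etv5, Id4 and Epcam fell, and Sall4 and Cdh1 rose. At 4 h against withdrawal Sall4, Etv5, Id4 and Epcam were higher and Ret and Cdh1 lower (14.6% and 16% of all). At 8 h the same genes apart from Sall4 were called in the same directions (9.62% and 15.4% of all). The summed level of the 7 was 21548 to 23223 in the control, 17785 to 19281 at withdrawal, 17402 to 18320 at 2 h, 19146 to 19843 at 4 h and 20092 to 20829 at 8 h. Gfra1, which encodes the GDNF co-receptor and usually defines these cells, stayed under the filter, as did Lin28a. Of 18 mesenchymal markers (fibroblasts, feeder cells), 12 were tested, Col1a1, Col3a1 and Sparc among them. Sertoli cell markers were tested for 4 of 8, and of these Dhh fell and Clu rose on withdrawal, with a mean log2 level of 7.50 to 7.52 in the control and 6.95 to 7.06 at withdrawal. Their summed level, went the other way, from 3338 to 3521 in the control to between 3707 and 3974. Tested were also 2 of 5 endothelial markers, 1 of 8 Leydig or peritubular markers (Acta2), and 0 of 7 immune or blood markers. These are whole cultures, so fewer cells of a type and less RNA per cell cannot be told apart.

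S100a3 encodes an S100 protein best known from the hair cuticle, where its cysteines bind zinc. In the control cultures it was at 5.60, 5.30 and 5.77. In the withdrawal cultures it was at 2.84, 2.27 and 2.74, near the lowest value in the whole table, 1.85. It was at 6.52, 6.10 and 5.02 at 2 h, then at 56.9, 61.3 and 47.8 at 4 h, and at 78.9, 48.5 and 81.7 at 8 h. All 9 arrays of the first 3 groups were thus under 16, and all 6 arrays of the 4 h and 8 h groups were above it. The 2 h values overlapped those of the control, and the 8 h values overlapped those of 4 h.

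The S100a3 means were 5.56 ± 0.236 in the control, 2.61 ± 0.304 at withdrawal, 5.88 ± 0.776 at 2 h, 55.3 ± 6.90 at 4 h and 69.7 ± 18.4 at 8 h (SD, n = 3 each). As deposited, the 4 h level was 21.2-fold and the 8 h level 26.1-fold that of withdrawal. The 8 h level was 12.2-fold that of the control, so the transcript did not stop at its starting value. Values under 16 have little resolution. With each of them set to 16, the rise over withdrawal was at least 3.44-fold at 4 h and at least 4.24-fold at 8 h, and the same bounds held against the control. Under that floor nothing was left of the difference between control and withdrawal, as both groups lay below it.

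Anxa3 encodes annexin A3, a membrane-binding protein that is abundant in neutrophil granules. In the control it was at 36.7, 44.2 and 38.3. After withdrawal all 3 cultures were close to 9.2, at 9.23, 9.20 and 9.38. At 2 h the values were 12.7, 9.52 and 10, still under 16. They reached 26.7, 38.9 and 28.8 at 4 h and 38.0, 34.9 and 45.7 at 8 h. Every control, 4 h and 8 h culture was above every withdrawal and 2 h culture.

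The Anxa3 means were 39.7 ± 3.94, 9.27 ± 0.0999, 10.8 ± 1.71, 31.4 ± 6.51 and 39.5 ± 5.54 in the same order of groups (SD, n = 3 each). The control was 4.27-fold above withdrawal as deposited, and at least 2.48-fold above it with values under 16 set to 16. The 8 h mean differed from the control mean by a factor of 1.01, and the groups overlapped. At 8 h Anxa3 thus overlapped its control values, while S100a3 lay above its own. The difference between these courses was not tested, since both genes were chosen for them. Anxa3 has 3 other probe sets, and they stayed between 4.41 and 5.56 on all 15 arrays, so the pattern rests on 1 probe set.

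**Figure D1:**
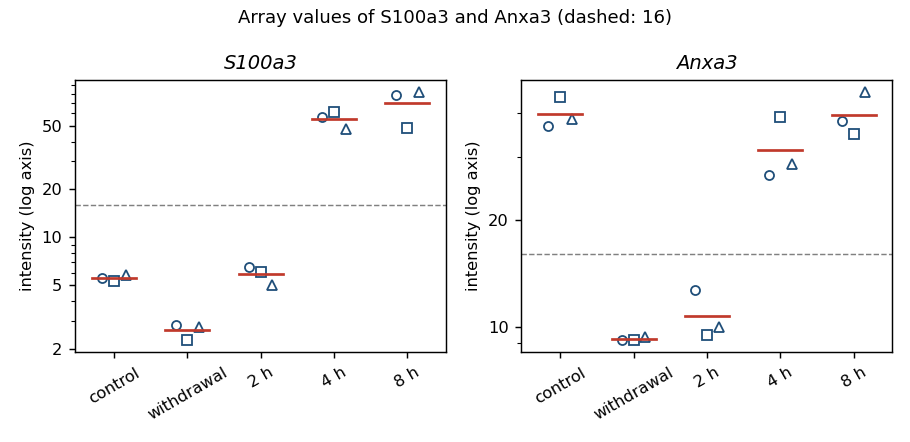
Intensity (log axis) of S100a3 and Anxa3 in the 5 groups; circles, squares and triangles are replicates 1, 2 and 3, red lines are group means (n = 3) and the dashed line is 16. S100a3 lies above the line only at 4 h and 8 h, and Anxa3 lies below it only at withdrawal and 2 h.

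The genes whose log2 values ran closest to S100a3 over the 15 arrays, among 8958 named genes, were Myh2 (Pearson r = 0.975), Adss2 (0.965), Gfra3 (0.954) and Cables1 (0.954). Myh2, a myosin heavy chain of fast skeletal muscle, had group means of 8.40, 8.12, 11, 81.6 and 101. Adss2, an enzyme of AMP synthesis, was at 635, 461, 557, 974 and 928. By the 5 group means alone the closest were Tram1, C6h14orf28, Irf3 and Smim29, with r from 0.995 to 0.999. With values under 16 set to 16, Myh2 (0.993) and Cables1 (0.926) stayed among the closest 4, and Lmna and Cdh2 took the other places.

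For Anxa3 the closest genes over the 15 arrays were Tec (r = 0.984), Rnf19a (0.983), Upk1b (0.968) and Adgre5 (0.964). Tec, a non-receptor tyrosine kinase, had group means of 615, 271, 306, 609 and 612. Upk1b, a tetraspanin of the urothelium, was at 333, 110, 120, 254 and 410. By the 5 group means they were Tmem59l, Pea15, Il33 and Rnf19a, with r from 0.996 to 0.999. Upk1b, Rnf19a and Tec were also among the closest 4 with values under 16 set to 16, beside Selenom. These correlations describe arrays that share their groups, and many genes rose and fell with GDNF, so they carry no test.

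Among the relatives, Anxa5 alone changed in all 5 comparisons. Anxa5 encodes annexin A5, the phosphatidylserine-binding protein used to stain dying cells. It was at 872, 1006 and 939 in the control and at 738, 751 and 774 after withdrawal. At 2 h it was at 907, 913 and 881, at 4 h at 1146, 1229 and 1219, and at 8 h at 1276, 1185 and 1154. The withdrawal cultures lay below all others, and the 4 h and 8 h cultures above all others. The 2 h cultures overlapped the control, and 8 h overlapped 4 h.

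Anxa5 fell from 939 ± 67.1 to 754 ± 17.9 on withdrawal (SD, n = 3), which is -0.31 ± 0.05 in log2 with its SE (adjusted p = 0.000855 by limma). All p-values here are two-sided, from limma fitted to all 15856 probe sets and adjusted by Benjamini-Hochberg, and a gene is said to rise or fall where the adjusted p is under 0.05. Against withdrawal it rose 1.19-fold at 2 h (limma adjusted p = 0.00349). It stood 1.59-fold higher at 4 h (limma adjusted p = 3.8e-07), at 1198 ± 45.1. The 8 h mean, 1205 ± 63.7, was 1.60-fold that of withdrawal (limma adjusted p = 5.23e-07). It was also 1.28-fold that of the control (0.36 ± 0.05 as log2 change and its SE, adjusted p = 0.000581 by limma). The log2 values of Anxa5 correlated with those of S100a3 at r = 0.95 and with those of Anxa3 at r = 0.77 over the 15 arrays, as a description. Both genes, like Anxa5, were lower at withdrawal than at 4 h and 8 h in every culture. The summed germ cell markers and the mean log2 level of the Sertoli markers were also lower at withdrawal than in the control, but this depended on the measure. The mean log2 level of the germ cell markers overlapped (10.25 to 10.44 in the control, 10.04 to 10.29 at withdrawal). The summed Sertoli markers were higher at withdrawal. Markers of both lists were themselves called on withdrawal, as given above, so their levels do not stand for cell number alone. The part of both marker lists in the change of Anxa5, Anxa7 and Anxa11 was not tested.

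Anxa2 encodes annexin A2, which links membranes to actin and, bound to S100A10, serves as a cell-surface receptor for plasminogen activator. It was at 1474, 1711 and 1549 in the control, at 1430, 1932 and 2007 after withdrawal, and at 1568, 1409 and 1670 at 2 h. It was at 1478, 1722 and 1943 at 4 h and at 2231, 2186 and 2072 at 8 h. The 8 h cultures were the highest of the series and overlapped no other group. They rose 1.37-fold over the control, from 1578 ± 121 to 2163 ± 81.7 (SD, n = 3; 0.46 ± 0.12 as log2 change and its SE, adjusted p = 0.0182 by limma). Against withdrawal the 8 h difference was 0.29 on the log2 scale and did not pass (95% interval 0.04 to 0.54, limma adjusted p = 0.0844). The call against the control is fragile: without control replicate 1, control replicate 3, 8 h replicate 1 or 8 h replicate 2 the limma adjusted p was between 0.0549 and 0.0681, and without the filter on low values it was 0.0583. A further Anxa2 probe set stayed between 5.92 and 6.26 on all arrays.

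Anxa1 encodes annexin A1, a glucocorticoid-induced inhibitor of inflammation. It was at 133, 168 and 130 in the control, at 94.6, 130 and 156 after withdrawal, and at 101, 109 and 122 at 2 h. At 4 h it was at 95, 131 and 132, and at 8 h at 130, 136 and 130. All groups overlapped the withdrawal group, and no comparison passed. The interval of its change on withdrawal, from -0.56 to 0.15 on the log2 scale, would still hold a change as large as that of Anxa5. Anxa6, which encodes an annexin with a duplicated core, lay between 7.98 and 14.7 on all 15 arrays and was not tested.

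**Figure D2:**
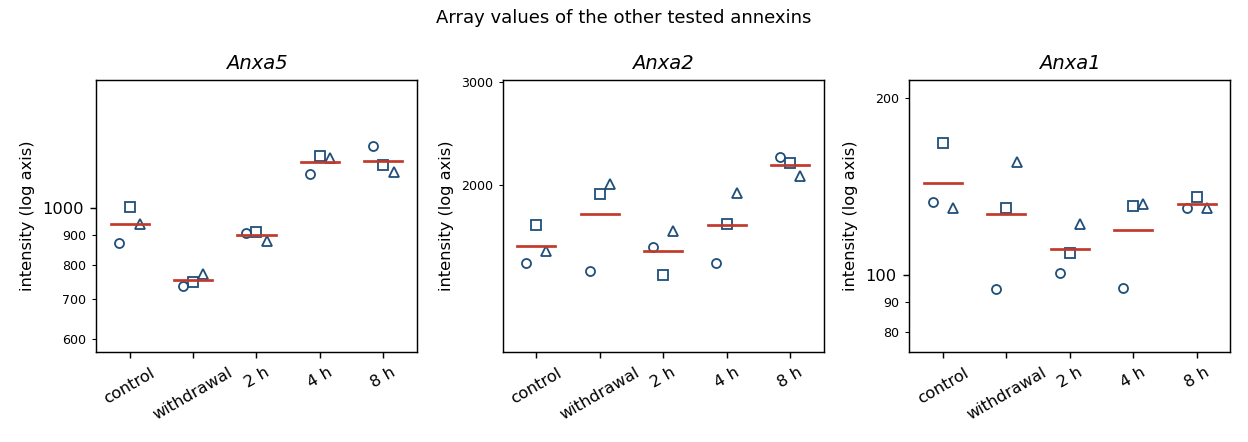
Intensity (log axis) of Anxa5, Anxa2 and Anxa1 in the 5 groups; circles, squares and triangles are replicates 1, 2 and 3, and red lines are group means (n = 3). Anxa5 is lowest at withdrawal and highest at 4 h and 8 h, Anxa2 is highest at 8 h, and Anxa1 overlaps between withdrawal and every group.

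The 4 other S100 genes were above 16 on all 15 arrays, and their cultures varied widely within a group. Of their 20 comparisons, 1 passed. S100a4 encodes a regulator of non-muscle myosin and cell motility, also known as a fibroblast marker. It was at 3562, 4919 and 3092 in the control and at 1555, 3645 and 4289 after withdrawal. At 2 h it was at 1580, 1707 and 1970, at 4 h at 1796, 2726 and 3092, and at 8 h at 3408, 3986 and 3205. The 2 h cultures lay below all control and 8 h cultures, but withdrawal replicate 1 was lower still. No comparison passed, the largest log2 change being -0.73 at 2 h against withdrawal (95% interval -1.36 to -0.10, limma adjusted p = 0.0808). Without withdrawal replicate 1 that change was -1.18 and passed, as did a change of -0.68 at 4 h.

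S100a6 encodes calcyclin, an S100 protein of proliferating cells. It was at 6199, 7791 and 6114 in the control and at 3305, 6273 and 6818 after withdrawal. At 2 h it was at 3701, 3293 and 4001, at 4 h at 4067, 5824 and 6260, and at 8 h at 7214, 7637 and 7012. The 8 h cultures were all above the withdrawal cultures, with a log2 difference of 0.48 that did not pass (95% interval 0.03 to 0.94, limma adjusted p = 0.114). Withdrawal replicate 1 was again at the level of the 2 h cultures, and without it S100a6 was lower by 0.84 at 2 h, which passed.

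S100a10 encodes the light chain of the complex with annexin A2 and, unlike other S100 proteins, does not need calcium to bind its partner. It was at 916, 1073 and 874 in the control and at 702, 1036 and 845 after withdrawal. At 2 h it was at 728, 704 and 741, at 4 h at 680, 873 and 892, and at 8 h at 1031, 1087 and 1071. Its 8 h values stood 0.32 above withdrawal on the log2 scale, which did not pass (95% interval 0.06 to 0.58, limma adjusted p = 0.068).

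S100a11 encodes the partner of annexin A1. It was at 422, 547 and 381 in the control and at 258, 527 and 425 after withdrawal. At 2 h it was at 252, 226 and 259, at 4 h at 258, 358 and 405, and at 8 h at 427, 502 and 445. S100a11 fell 1.58-fold from withdrawal to 2 h, from 404 ± 136 to 246 ± 17.4 (SD, n = 3; -0.66 ± 0.21 as log2 change and its SE, adjusted p = 0.0348 by limma). The groups overlapped, because withdrawal replicate 1 was at the 2 h level. The call did not hold without any 1 of the 2 h replicates or without withdrawal replicate 2 or 3 (limma adjusted p between 0.0644 and 0.17), and it was also lost under 4 other settings, the marker covariate described below among them.

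**Figure D3:**
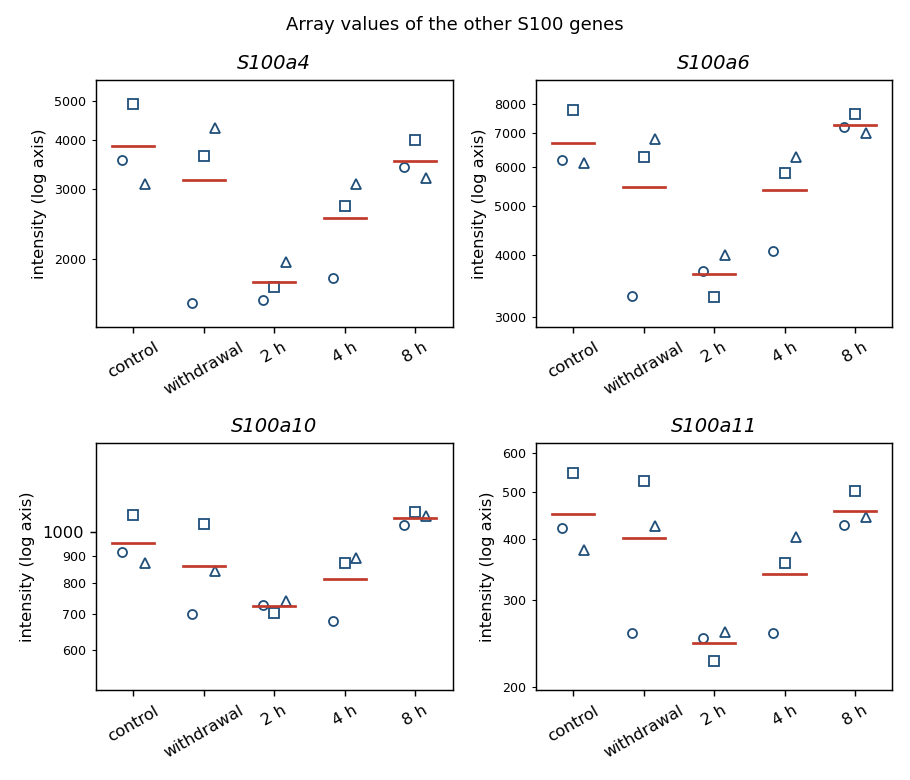
Intensity (log axis) of S100a4, S100a6, S100a10 and S100a11 in the 5 groups; circles, squares and triangles are replicates 1, 2 and 3, and red lines are group means (n = 3). The 2 h cultures sit together and low, and withdrawal replicate 1 (circle) lies well below the other withdrawal cultures in all 4 panels.

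In RefSeq's order of genes on build GRCr8, S100a3, S100a4, S100a5 and S100a6 are successive protein-coding genes, and pseudogenes lie between S100a3 and S100a4. S100a5, whose product is typical of olfactory neurons, did not reach the filter. S100a11 and S100a10 are neighbours elsewhere on the same chromosome, with 1 pseudogene between them. At 4 h, when S100a3 was above 16 in all cultures, S100a4 was 0.23 below withdrawal on the log2 scale and did not pass (95% interval -0.85 to 0.40). The log2 values of the pair correlated at r = 0.08 over the 15 arrays.

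The relatives called in each comparison were set beside the share of all tested probe sets called. On withdrawal, 0 of 7 tested relatives rose and 1 (Anxa5) fell, where 11.4% of all tested probe sets rose and 9.67% fell. At 2 h against withdrawal 1 rose (Anxa5) and 1 fell (S100a11), beside 11.9% and 14.2% of all. At 4 h 1 rose (Anxa5) and 0 fell, beside 14.6% and 16% of all. At 8 h against withdrawal 1 rose (Anxa5) and 0 fell, beside 9.62% and 15.4% of all. At 8 h against the control 2 rose (Anxa2 and Anxa5) and 0 fell, beside 4.83% and 7.49% of all. Centring each array on its median changed the split of all calls at 8 h, from 1526 higher and 2437 lower to 1961 and 1915 against withdrawal, and from 766 and 1187 to 1028 and 939 against the control. At an unadjusted limma p under 0.05 these counts of 0 stayed at 0, while 1 relative was higher and 3 were lower at 2 h and 4 were higher at 8 h against withdrawal. The counts turn on single arrays. Without withdrawal replicate 1, limma called 6 relatives at 2 h, Anxa5 higher and S100a4, S100a6, S100a10, S100a11 and Anxa2 lower, and 3 at 4 h. Without withdrawal replicate 3 it called S100a6 and Anxa2 beside Anxa5 at 8 h against withdrawal, and S100a10 beside Anxa5 without withdrawal replicate 2 or 4 h replicate 1. The comparisons with withdrawal share its 3 arrays, so their counts are not independent.

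The median log2 change of the 7 relatives was -0.20 on withdrawal, -0.23 at 2 h, -0.07 at 4 h and 0.29 at 8 h against withdrawal, and 0.13 at 8 h against the control. The medians over all tested probe sets lay between -0.024 and 0.014, and their median absolute log2 change between 0.103 and 0.146. The medians of the relatives were not tested against these. A limma F test over the 5 groups called 6 of the 7 relatives, where 49.6% of all tested probe sets were called. Its adjusted p was 5.63e-07 for Anxa5, 0.00964 for S100a6, 0.0123 for S100a10, 0.0141 for S100a11, 0.0169 for Anxa2 and 0.0299 for S100a4, and 0.312 for Anxa1, from the same limma fit. Without the filter on low values the F test called 3 of them, S100a6, S100a10 and Anxa5.

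**Figure D4:**
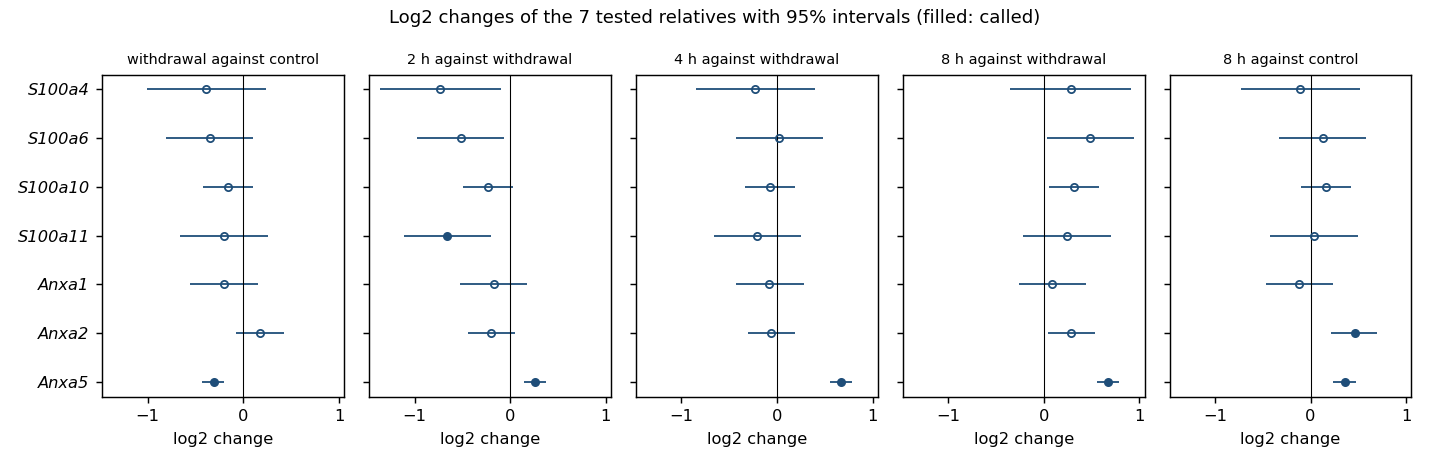
Log2 change of the 7 tested relatives in the 5 comparisons, with 95% intervals from the limma fit; filled points have an adjusted p under 0.05. Anxa5 has the narrowest intervals and is filled in every panel, S100a11 is filled at 2 h only and Anxa2 at 8 h against the control only.

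The spread among cultures of a group went along with mesenchymal markers. The mean log2 level of the 12 tested mesenchymal markers was 8.19 ± 0.24 in the control, 8.17 ± 0.45 at withdrawal, 7.62 ± 0.14 at 2 h, 7.86 ± 0.26 at 4 h and 8.34 ± 0.14 at 8 h (SD, n = 3). Their summed level ranged from 4174 to 5500, 3239 to 5289, 2846 to 3240, 3063 to 4008 and 4443 to 5359 in the same order. Of the 12, 5 fell from withdrawal to 2 h, namely Col1a1, Col3a1, Col5a1, Pdgfra and Fbn1, where 14.2% of all tested probe sets fell. Fbn1 also fell on withdrawal (9.67% of all) and rose at 8 h against withdrawal (9.62% of all). Pdgfra was also lower at 4 h than at withdrawal (16% of all). Col5a2 and Fn1 were higher at 8 h than in the control (4.83% of all). Single markers were thus called between treatments. Col6a1, Col6a2, Pdgfrb, Lum, Postn and Lox were under the filter, and none was at 0. Withdrawal replicate 1 had the lowest marker mean of its group, 7.65 against 8.37 and 8.49.

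Within groups, that is after subtracting each group's mean, the level of S100a4 followed this marker mean at Pearson r = 0.99 and Spearman rho = 0.99 over the 15 arrays (exact permutation of arrays within groups, 7776 arrangements, p = 0.000129 for both, the smallest they can give; adjusted p = 0.00154 over 12 relations). Its slope was 1.59 log2 units per log2 unit of the markers. Anxa1 followed at r = 0.96 and rho = 0.94 (exact permutation p = 0.000257 and 0.000514, adjusted 0.00154 and 0.00309). S100a6 followed at r = 0.95 and rho = 0.92 (exact permutation p = 0.00244 and 0.0027, adjusted 0.00977 and 0.0108). Anxa2 gave r = 0.91 and rho = 0.87 (exact permutation p = 0.00476 and 0.00386, adjusted 0.0143 and 0.0116). S100a11 gave r = 0.90 and rho = 0.90 (exact permutation p = 0.0109 and 0.00553, adjusted 0.0219 and 0.0133). S100a10 gave r = 0.82 and rho = 0.77 (exact permutation p = 0.0228 and 0.0171, adjusted 0.039 and 0.0293). Without the 2 arrays farthest from the median marker level of all arrays, 2 h replicate 1 and 4 h replicate 1, r of the 6 lay between 0.80 and 0.99. No p was computed for this. Withdrawal replicate 1, with the lowest marker mean of its group, was kept, so how far the relations rest on it was not tested.

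Anxa5 gave r = 0.53 and rho = 0.58 (exact permutation p = 0.0499 and 0.0622, adjusted 0.07 and 0.083), r = 0.47 without the 2 farthest arrays, and a slope of 0.13, so this relation did not pass. For S100a3 and Anxa3 the measure says little, because 9 arrays of S100a3 and 6 of Anxa3 lay under 16. Both were among the 12 relations that the adjustment covered, but no p is quoted for them. As a description, r was -0.46 for S100a3 and 0.09 for Anxa3. The difference in r between genes was not tested.

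With the marker mean as a covariate, Anxa5 kept its calls, with log2 changes of -0.31, 0.32, 0.71, 0.65 and 0.34 in the 5 comparisons. The 2 h change of S100a11 became -0.09 (limma adjusted p = 0.67), and those of S100a4 and S100a6 turned from -0.73 and -0.51 to 0.14 and 0.10. The marker mean came from the same arrays and differed between groups (7.62 at 2 h, 8.17 at withdrawal), and S100a4 followed it at r = 0.99. The values with the covariate are therefore departures from a fitted line, not changes between cultures of equal marker level. On that scale S100a4 was lower by 0.36 on withdrawal (limma adjusted p = 0.000167) and by 0.35 at 8 h against the control (limma adjusted p = 0.000469). At 4 h against withdrawal S100a4 turned from -0.23 to 0.26 and passed (limma adjusted p = 0.00311). S100a6 was lower by 0.33 on withdrawal (limma adjusted p = 0.00267) and higher by 0.36 at 4 h and 0.29 at 8 h against withdrawal (limma adjusted p = 0.00212 and 0.00779). Anxa1 was higher by 0.28 at 2 h than at withdrawal and lower by 0.24 at 8 h than in the control (limma adjusted p = 0.0486 and 0.0479). Anxa2 was higher by 0.18 on withdrawal, by 0.19 at 8 h against withdrawal and by 0.37 at 8 h against the control (limma adjusted p = 0.0321, 0.0262 and 0.000694), and S100a10 by 0.23 at 8 h against withdrawal (limma adjusted p = 0.0446). The part of these markers in the results for the relatives was not tested.

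**Figure D5:**
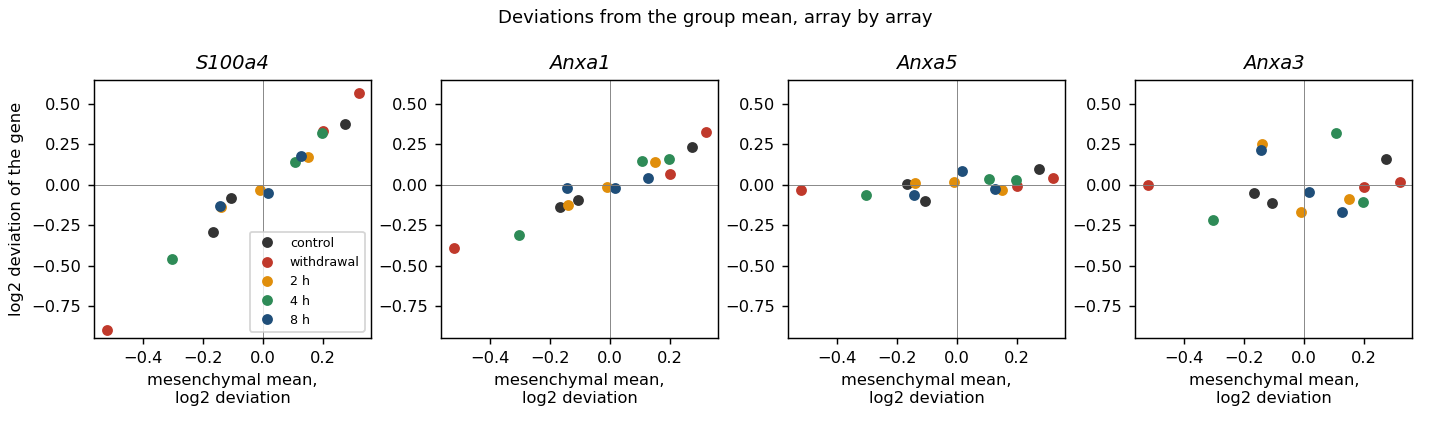
Deviation of each array from its group mean, for the mean of the 12 mesenchymal markers (x axis, log2) and for S100a4, Anxa1, Anxa5 or Anxa3 (y axis, log2); each point is 1 array, coloured by group. Points for S100a4 (r = 0.99) and Anxa1 (r = 0.96) lie along a line, those for Anxa5 (r = 0.53) are flatter, and those for Anxa3 (r = 0.09) include 6 arrays under 16.

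Most of the further members of both families stayed under the filter. Of 11 further S100 genes, 9 had a probe set, none passed the filter, and the highest value among them was 10.8. Of 7 further annexins, 3 were tested: Anxa4, Anxa7 and Anxa11. Anxa8 and Anxa9 stayed at 6.57 or lower. Of the 3 tested, 0 rose and 2 fell on withdrawal, where 11.4% of all tested probe sets rose and 9.67% fell. None was called at 2 h by limma, where 1 was higher and 1 lower at an unadjusted p under 0.05. Anxa7 alone rose at 4 h and at 8 h against withdrawal (14.6% and 9.62% of all rose), and Anxa11 alone was lower at 8 h than in the control (7.49% of all). A list of 3 genes is too short to be read against those shares.

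Anxa7 encodes annexin A7, also called synexin, a membrane-fusing protein. It fell from 1074 ± 36.9 in the control to 743 ± 46.8 on withdrawal (SD, n = 3), a 1.45-fold drop (-0.53 ± 0.05 as log2 change and its SE, adjusted p = 3.27e-06 by limma). It was at 813 ± 4.25 at 2 h, which did not pass against withdrawal (limma adjusted p = 0.0685). It rose to 961 ± 34.8 at 4 h (1.29-fold over withdrawal, limma adjusted p = 6.54e-05) and to 1034 ± 37.0 at 8 h (1.39-fold, limma adjusted p = 8.41e-06). The 8 h cultures overlapped the control. Its within-group relation with the mesenchymal mean was r = -0.07 (rho = 0.05; exact permutation p = 0.906 and 0.912, adjusted 0.906 and 0.933; r = 0.04 without the 2 farthest arrays).

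Anxa11, whose product tethers RNA granules to lysosomes, fell from 1180 ± 22.4 to 960 ± 19.4 on withdrawal (SD, n = 3; -0.30 ± 0.05 as log2 change and its SE, adjusted p = 0.000351 by limma). At 8 h it was at 1021 ± 36.7, which did not pass against withdrawal (limma adjusted p = 0.187) and was 0.21 below the control on the log2 scale (limma adjusted p = 0.00832). Its relation with the mesenchymal mean was r = -0.11 (rho = -0.03; exact permutation p = 0.713 and 0.933, adjusted 0.814 and 0.933; r = -0.05 without them). Anxa4 was at 107 ± 33.3 in the control, 106 ± 32.8 at withdrawal, 60.5 ± 5.42 at 2 h, 67.5 ± 23.1 at 4 h and 86.7 ± 16 at 8 h. It passed in no comparison (limma adjusted p = 0.0573 at 2 h) and followed the mesenchymal mean at r = 0.87 (rho = 0.84; exact permutation p = 0.0104 and 0.0131, adjusted 0.0219 and 0.0262; r = 0.85 without them). RefSeq lists pseudogenes or copies of S100a10, S100a11, Anxa2 and Anxa7, and whether their probe sets also catch those transcripts was not tested.

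Proteins known to bind these families or to work with them formed a list of 20, of which 17 had a probe set and 10 were tested. On withdrawal 2 rose and 2 fell, beside 11.4% and 9.67% of all tested probe sets. At 2 h 0 rose and 1 fell (11.9% and 14.2% of all), and at 4 h 4 rose and 1 fell (14.6% and 16% of all). At 8 h 3 rose and 1 fell against withdrawal (9.62% and 15.4% of all), and 1 rose and 1 fell against the control (4.83% and 7.49% of all). Several of these counts are near the share of all. At an unadjusted limma p under 0.05 the count of 0 at 2 h was also 0. Each gene is counted by its tested probe set of highest mean, and for Grb2, an adaptor protein, this matters: a dimmer probe set fell by 0.19 on withdrawal and rose by 0.23 at 2 h (limma adjusted p = 0.0471 and 0.0161). Pdcd6 and Rasa1 moved with GDNF as Anxa7 did. Pdcd6 encodes ALG-2, a calcium sensor that binds annexins A7 and A11. It fell from 3071 ± 76.6 to 2572 ± 51.7 on withdrawal (SD, n = 3; -0.26 ± 0.04 as log2 change and its SE, adjusted p = 0.000399 by limma). It was higher again by 0.28 at 4 h (limma adjusted p = 0.000102) and by 0.27 at 8 h (limma adjusted p = 0.000218).

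Rasa1 encodes the p120 Ras GTPase-activating protein, which annexin A6 brings to the membrane. It fell from 3400 ± 302 to 2601 ± 27.9 on withdrawal (SD, n = 3; -0.38 ± 0.06 as log2 change and its SE, adjusted p = 0.000186 by limma). It was higher by 0.33 at 4 h and by 0.24 at 8 h than at withdrawal (limma adjusted p = 0.000384 and 0.00482). The calls of Pdcd6 and Rasa1 held without any 1 array.

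Myh9, the non-muscle myosin heavy chain that S100A4 binds, went the other way. It rose by 0.38 on withdrawal (limma adjusted p = 0.0134) and was lower by 0.36 at 2 h than at withdrawal (limma adjusted p = 0.0153). The calls were lost without control replicate 3 and without 2 h replicate 2 (limma adjusted p = 0.0638 and 0.0642), and under other settings given in the closing part. Plat, the tissue plasminogen activator that binds the annexin A2 complex, was higher than at withdrawal by 0.40 at 4 h and 0.47 at 8 h (limma adjusted p = 0.0341 and 0.0176). Without withdrawal replicate 1 these became 0.34 and 0.41 and did not pass (limma adjusted p = 0.109 and 0.0687), and the 4 h call was also lost without withdrawal replicate 2 or 3 or 4 h replicate 2 or 3, and the 8 h call without 8 h replicate 1.

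Cacybp, which encodes the calcyclin-binding protein, was higher by 0.20 at 4 h than at withdrawal (limma adjusted p = 0.0161), but not without withdrawal replicate 3 or 4 h replicate 2 (limma adjusted p = 0.0841 and 0.0807). Sugt1, a co-chaperone and S100A6 partner, was higher by 0.15 at withdrawal and by 0.17 at 8 h than in the control (limma adjusted p = 0.0126 and 0.0102), the second call being lost without 8 h replicate 3 (limma adjusted p = 0.0534) and the first with 3 arrays left out together (0.0719). Fbln1, an extracellular matrix protein, was lower than at withdrawal by 0.21 at 4 h and by 0.36 at 8 h (limma adjusted p = 0.046 and 0.00218), and lower by 0.28 at 8 h than in the control (limma adjusted p = 0.0199). Its 4 h call was lost in most fits that left out 1 array, and its call against the control without control replicate 1 or 8 h replicate 1 or 3 (limma adjusted p between 0.0546 and 0.0767).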

How the data were processed

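RNA from 15 cultures of rat spermatogonial stem cells was measured on 15 single-colour expression arrays. The deposited values are intensities on a linear scale, which the authors made with GCRMA in Partek 6.3, per the submitters' processing notes. GCRMA models probe background and pulls dim probe sets toward a common low value, so that changes near it are compressed or uncertain. Genes were named where the platform annotation gave a probe set 1 symbol (20826 of 31099, with 436 holding several and 9780 none, and 57 controls left out). Log2 of the deposited intensities was tested with limma 3.58.1 (R 4.3.3), lmFit and eBayes with an intensity trend, over all 15 arrays as 5 groups with no covariate and two-sided. Probe sets with log2 of at least 4 on at least 3 arrays were tested, and p-values were adjusted by Benjamini-Hochberg over all 15856, with a threshold of 0.05. The script was tested on simulated data. No 2 arrays shared over 2.47% of identical values. The number of arrays limits the precision.

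The members, lists and tests were chosen with earlier results of these data known. The rule for named genes took all 10 members (each by its tested probe set of highest mean), the tested genes of the 18-gene family list and the 20-gene partner list that passed, and the 4 genes closest to S100a3 and to Anxa3. Relations with the mesenchymal marker mean used Python 3.11.15 and scipy 1.17.1. Alternatives covered the filter, a floor, normalization, variance model, arrays, replicate block and the marker covariate.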

Additional observations from a re-analysis of the deposited data

How the results depend on the processing

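Depth does not apply to arrays, and signal over background limits S100a3, Anxa3 and Anxa6, whose values lay wholly or partly under 16. Anxa5 was called in the same direction in all 5 comparisons under all settings tried, and so were the calls given above for Anxa7 and Anxa11. The counts of relatives called moved as follows, and beyond the settings' own construction the cause was not tested. Without the filter on low values they were 1 at 2 h, 1 at 8 h against the control and 3 for the F test. Median centring gave 2 at 8 h against withdrawal, no intensity trend gave 1 at 2 h, array weights gave 5 at 2 h, and a fit of only the groups compared gave 1 at 2 h. With a replicate block, 4 were called at 2 h and 2 at 8 h against withdrawal. Of same-numbered arrays, 8 of 30 pairs correlated over 0.1 (median r = 0.04, lowest -0.14). Of arrays with different numbers, 10 of 60 pairs did (median r = -0.01, highest 0.36). Among the replicate 1 arrays, control correlated with withdrawal and with 4 h at r = 0.24 each. Withdrawal replicate 1 correlated with 4 h replicate 1 at r = 0.39, the highest of all pairs. Whether same-numbered cultures share an origin was not tested, so the block is given only as an alternative setting. With the marker covariate the counts were 4 on withdrawal, 3 at 4 h, 4 at 8 h against withdrawal and 4 at 8 h against the control. Leaving out replicate 1 of the control, withdrawal and 4 h groups together gave 2 on withdrawal and 7 at 2 h. Leaving out each array in turn gave 1 to 2 on withdrawal, 1 to 6 at 2 h, 1 to 3 at 4 h, 1 to 3 at 8 h against withdrawal, 1 to 2 at 8 h against the control and 4 to 6 for the F test.

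Some log2 changes that had not passed turned sign. Median centring moved Anxa3 at 8 h against the control to 0.02. Array weights moved S100a11 on withdrawal to 0.0046 and S100a6 at 4 h to -0.01. With the marker covariate, the 2 h changes were 0.14 for S100a4, 0.10 for S100a6, 0.06 for S100a10, 0.28 for Anxa1 and 0.11 for Anxa2, and those at 4 h were 0.26 for S100a4, 0.09 for S100a10, 0.11 for S100a11, 0.17 for Anxa1 and 0.12 for Anxa2. Of these, Anxa1 at 2 h and S100a4 at 4 h passed after turning (limma adjusted p = 0.0486 and 0.00311). It also gave -0.05 for Anxa1 at 8 h against withdrawal, and -0.04 for S100a6 and -0.12 for S100a11 at 8 h against the control. Without the 3 arrays together, S100a4 was at 0.02 and S100a11 at 0.05 on withdrawal, S100a6 at -0.12 at 4 h, and S100a4, S100a11 and Anxa1 at -0.17, -0.05 and -0.11 at 8 h against withdrawal. Leaving out 1 array, the ranges on withdrawal were -0.67 to 0.06 for S100a4 and -0.42 to 0.09 for S100a11. At 4 h they were -0.68 to 0.06 for S100a4, -0.31 to 0.22 for S100a6, -0.21 to 0.07 for S100a10, -0.50 to 0.01 for S100a11, -0.27 to 0.09 for Anxa1 and -0.21 to 0.05 for Anxa2. At 8 h against withdrawal they were -0.17 to 0.56 for S100a4, -0.05 to 0.46 for S100a11 and -0.11 to 0.25 for Anxa1. At 8 h against the control they were -0.25 to 0.08 for S100a4, -0.07 to 0.19 for S100a11, -0.18 to 0.0020 for Anxa1 and -0.12 to 0.07 for Anxa3. S100a11 at 2 h also did not pass without the filter (limma adjusted p = 0.0994), without the trend (0.0527), with only the groups compared (0.0801) and with the marker covariate (0.67). Myh9 was lost at 2 h with the covariate (limma adjusted p = 0.0675) and on withdrawal without the 3 arrays (0.0698). Sugt1 was lost at 8 h against the control with only the groups compared (limma adjusted p = 0.0548). Cacybp was lost at 4 h with array weights and with only the groups compared (limma adjusted p = 0.0627 and 0.0746). Plat was lost at 4 h without the filter, with only the groups compared and without the 3 arrays (limma adjusted p = 0.0755, 0.0509 and 0.0595). At 8 h Plat was lost without the 3 arrays (limma adjusted p = 0.062). Fbln1 was lost against the control with only the groups compared and without the 3 arrays (limma adjusted p = 0.0567 and 0.0953), and at 4 h under several settings. Quantile normalization gave S100a3 log2 changes of -0.46 on withdrawal, 0.29 at 2 h, 3.63 at 4 h and 3.95 at 8 h against withdrawal.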
